A study of Homo sapiens with 8 samples.

Results

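The AP-1 and immediate early factors examined here were 10 genes: FOS, FOSB, FOSL1, FOSL2, JUN, JUNB, JUND, EGR1, ATF3 and IER2. They were chosen by name, as the rows of the gene-level count table that carry these symbols, and each symbol had 1 row among 78691 genes. RNA was sequenced from C4-2B, a castration-resistant prostate adenocarcinoma line derived from LNCaP, and from NCI-H660, a neuroendocrine prostate cancer line. C4-2B cells carried a lentivirus with an empty vector (C4-2B control) or one expressing MYCL and EGFP from the EF1A promoter (C4-2B MYCL). NCI-H660 cells carried shRNA against MYCL (NCI-H660 shMYCL) or a non-targeting shRNA (NCI-H660 shCtrl). The series' design names an adenoviral vector for the knockdown, while its sample protocol speaks of stable knockdown. Each of the 4 groups had 2 libraries. The labels name no serum or growth factor stimulation and no time of harvest after transduction. MYCL is a MYC family transcription factor, and the series asks how raising it in the adenocarcinoma line and lowering it in the neuroendocrine line changes expression.

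AP-1 is a dimer of basic leucine zipper (bZIP) proteins. JUN family members pair with each other or with FOS family members, whereas FOS family members need a JUN partner to bind DNA. FOS, FOSB, JUN, JUNB, EGR1, ATF3 and IER2 belong to the immediate early genes, which are transcribed within minutes of a stimulus without new protein synthesis, largely through MAP kinases acting on serum response factor with its ternary complex partners and on CREB/ATF factors. Their transcripts are short-lived, so a level reflects the state of the culture when it was lysed. JUND and FOSL2 are, by contrast, present at appreciable levels in many unstimulated cells.

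The libraries held 18090296 to 32344170 counts in C4-2B and 15177071 to 18362950 in NCI-H660, with 9.63% to 10.7% and 3.50% to 3.83% of counts on mitochondrial genes. MYCL itself followed its labels. Counts in C4-2B include the vector's transcript. MYCL had 371 and 320 counts in the C4-2B control libraries against 65524 and 70253 with the vector (log2 fold change 8.26, SE 0.12), and 1863 and 1602 in shCtrl against 165 and 198 in shMYCL (log2 fold change -3.06, SE 0.15). The summed TPM (a length-normalized level, scaled to the same sum in every library) of 7 luminal prostate markers was 1488 to 2279.7 in C4-2B and 1.35 to 2.28 in NCI-H660, where KLK3, KLK2, FOLH1 and HOXB13 had at most 3 counts in any library. The sum of 6 neuroendocrine markers was 6.94 to 7.32 TPM in C4-2B, with INSM1 and NCAM1 at 0 counts, and 649.9 to 1093 in NCI-H660. Of 6 markers of leukocytes, endothelium and stroma, PTPRC, CD3E, PECAM1 and DCN had at most 3 counts in any library, and the summed TPM of the 6 was 2.58 to 4.35 in C4-2B and 2.41 to 3.47 in NCI-H660. Fewer cells expressing a gene and less RNA per cell cannot be told apart in these bulk libraries.

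The 10 genes are scattered over the genome, with FOSB, JUNB, JUND and IER2 all on chromosome 19. JUNB and JUND have a single exon block in GENCODE 44, FOS has 3 and ATF3 has 5. Promoters bear on these genes because most of them answer the same upstream factors. The 250 bases before the start site in RefSeq (GRCh38.p14) could be read for 9 of the 10 genes, all but FOSL1. The 5 below were chosen because they hold matches to elements that classically drive immediate early transcription. The choice also followed expression: 4 of these genes rose in C4-2B with MYCL while EGR1 was not called. Capitals mark TGACGTCA (the CRE), its half-site TGACGT or the reverse complement ACGTCA, TGACATCA, and the CArG box of serum response factor (CC, 6 of A or T, GG), each written 5′ to 3′ along the gene.
JUN, chr1:58784048-58784297, minus strand: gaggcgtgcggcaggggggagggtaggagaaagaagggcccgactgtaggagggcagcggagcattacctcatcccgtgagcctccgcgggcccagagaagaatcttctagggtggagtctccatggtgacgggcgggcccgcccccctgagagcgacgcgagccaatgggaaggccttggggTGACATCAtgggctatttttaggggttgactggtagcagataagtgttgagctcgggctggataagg
ATF3, chr1:212565157-212565406, plus strand: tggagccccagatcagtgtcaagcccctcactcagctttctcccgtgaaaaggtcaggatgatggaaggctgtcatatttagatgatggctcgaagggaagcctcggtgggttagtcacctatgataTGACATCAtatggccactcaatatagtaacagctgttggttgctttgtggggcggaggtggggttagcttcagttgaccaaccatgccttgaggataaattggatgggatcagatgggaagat
JUND, chr19:18281623-18281872, minus strand: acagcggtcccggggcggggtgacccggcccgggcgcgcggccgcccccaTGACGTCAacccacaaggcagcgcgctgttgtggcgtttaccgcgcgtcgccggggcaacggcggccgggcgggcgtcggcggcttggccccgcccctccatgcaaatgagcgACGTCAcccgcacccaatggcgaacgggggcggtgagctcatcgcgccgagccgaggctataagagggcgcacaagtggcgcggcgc
FOS, chr14:75278578-75278827, plus strand: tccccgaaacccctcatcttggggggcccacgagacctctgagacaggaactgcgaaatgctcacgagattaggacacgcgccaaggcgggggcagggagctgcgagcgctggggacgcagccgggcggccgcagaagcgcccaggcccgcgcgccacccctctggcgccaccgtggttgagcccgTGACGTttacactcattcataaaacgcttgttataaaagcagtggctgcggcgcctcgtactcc
EGR1, chr5:138465229-138465478, plus strand: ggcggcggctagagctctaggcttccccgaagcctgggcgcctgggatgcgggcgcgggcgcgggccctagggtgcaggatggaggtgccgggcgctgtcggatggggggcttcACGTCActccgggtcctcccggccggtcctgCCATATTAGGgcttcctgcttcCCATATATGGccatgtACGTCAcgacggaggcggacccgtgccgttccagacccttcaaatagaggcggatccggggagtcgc

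The JUN and ATF3 windows each held 1 TGACATCA, the letters bound by JUN-ATF dimers in the JUN promoter. Of the 35116 RefSeq promoter windows of the same length, 2.37% held that sequence on either strand. The ATF3 window lies at the 5′ end of a gene annotated from 212565334 to 212620777. Any start sites further inside that gene were not read. JUND alone among the 9 had the full CRE, TGACGTCA, found in 1.65% of all windows. The half-site TGACGT, which every full CRE also contains, was present in 5 of 9 (FOS, FOSB, FOSL2, JUND and EGR1) against 7.10% of all windows. In FOS it began 64 bases before the start, in FOSB 60 and in FOSL2 66. Within these windows EGR1 alone had CArG boxes, 2 of them, against 1.16% of windows with at least 1. Bases further upstream were not read, so a CArG box there, in FOS or another member, would be missed. The AP-1 site TGANTCA and the E-box CACGTG, the letters that MYC family dimers prefer, were in 0 of 9 windows, against 6.57% and 6.34% of all. TGACATCA and the half-site were added to the search after the sequences had been read. JUNB, which was called higher in C4-2B with MYCL, and IER2, which was not called there, held none of the sequences searched. FOSB held the half-site and was not called there, on few counts. These matches describe letters in a short window and were not tested against the expression values below.

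Levels are given first as TPM, which divides by gene length and so allows genes to be compared (mean ± SD, n = 2 libraries). In C4-2B control cells JUND was the most abundant of the 10 at 30.3 ± 3.7 TPM. IER2 (19.8 ± 2.2) and JUNB (18.5 ± 0.34) came next and overlapped between libraries, followed by ATF3 (16.5 ± 0.27), FOSL2 (8.27 ± 0.67) and JUN (7.16 ± 0.45). EGR1, FOS, FOSB and FOSL1 were below 1 TPM in both libraries, the highest being EGR1 at 0.399 ± 0.024. The control cells thus held JUN family, ATF3, IER2 and FOSL2 transcripts and few transcripts of FOS or FOSB. With MYCL the order was led by ATF3 (112.6 ± 12.1) and JUND (104.4 ± 2.8), which overlapped, and by JUNB (28.7 ± 1.5) and JUN (25.3 ± 4.3), which also overlapped. IER2 followed at 17.5 ± 0.73, above FOSL2 at 14.96 ± 0.028 and FOS at 5.24 ± 0.57.

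**Figure D1:**
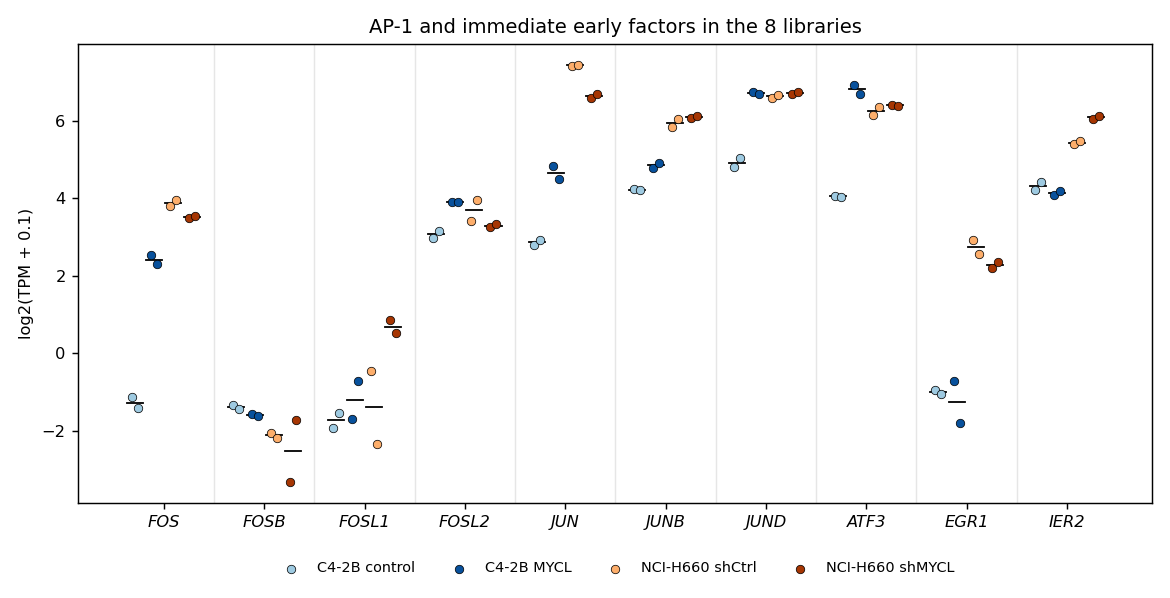
Level of each gene in each of the 8 libraries, as log2(TPM + 0.1), with 2 points per group and a bar at their mean. FOS lies at 4.83 TPM or above in 6 libraries and below 1 TPM in the 2 C4-2B control libraries; FOSB stays below 1 TPM in all 8.

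In NCI-H660 shCtrl cells JUN led at 172.2 ± 2.6 TPM, above JUND (99.2 ± 4.0), ATF3 (76.7 ± 8.0), JUNB (61.3 ± 6.1) and IER2 (43.3 ± 1.1), with no overlap between neighbours. FOS (14.6 ± 1.2) and FOSL2 (13.0 ± 3.6) overlapped, and EGR1 stood at 6.64 ± 1.17. Under shMYCL the first place passed to JUND (104.7 ± 1.9), with JUN next at 99.7 ± 4.0 and ATF3 at 84.3 ± 0.92. IER2 and JUNB, both at 68.0 TPM on average, overlapped. FOSL1 and FOSB were the lowest of the 10 in both NCI-H660 groups. ATF3 thus went from rank 4 in C4-2B control to rank 1 with MYCL, and JUN from rank 1 to rank 2 with shMYCL.

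Within the FOS family the composition differed between the lines and, in C4-2B, between the conditions. FOSL2, which encodes FRA2 and lacks the strong activation domain of FOS, made up 90.6% and 91.8% of the summed TPM of FOS, FOSB, FOSL1 and FOSL2 in the 2 C4-2B control libraries. With MYCL it made up 72.9% and 71.0% of a larger sum, which was 9.07 ± 0.65 TPM in control and 20.8 ± 0.34 TPM with MYCL. FOS itself made up 2.85% to 4.12% of the family in control libraries and 23.5% to 26.8% in MYCL libraries. In NCI-H660 FOS and FOSL2 were near parity, with FOS at 49.6% to 55.1% in shCtrl and 50.1% to 50.3% in shMYCL.

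Within the JUN family JUND, a member that can restrain growth, was the largest part in C4-2B. It made up 51.9% and 56.1% of the family in control libraries and 65.5% to 66.3% with MYCL, while JUNB went from 31.2% to 35.2% down to 17.0% to 19.2%. The family sum was 56.0 ± 3.8 TPM in control and 158.4 ± 5.7 TPM with MYCL. In NCI-H660 shCtrl libraries JUN was the largest part at 50.9% to 52.6%. Under shMYCL JUN was 36.2% to 36.9%, below JUND at 38.2% to 38.7%, and the sum was 272.4 ± 7.3 TPM against 332.7 ± 12.6 TPM. JUN itself was 12.7% and 12.8% of the family in C4-2B control and 14.4% and 17.5% with MYCL, the smallest of these differences.

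**Figure D2:**
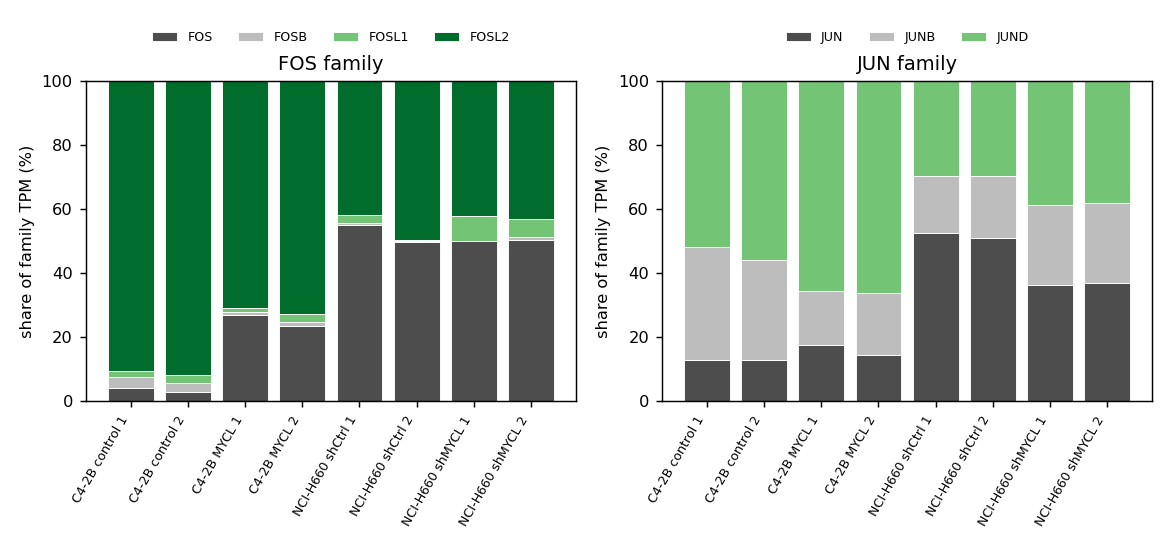
Share of each member in the summed TPM of its family (percent, bars stacked to 100) in each library, FOS family on the left and JUN family on the right. FOSL2 fills over 90% of the FOS family in C4-2B control libraries, and JUN over 50% of the JUN family in NCI-H660 shCtrl libraries.

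MYCL overexpression in C4-2B was accompanied by higher levels of 6 of the 9 members that could be tested: FOS, JUN, JUND, ATF3, FOSL2 and JUNB. FOSB, EGR1 and IER2 were not called, and FOSL1 had too few counts to be tested. Counts were compared with edgeR's quasi-likelihood test over 16866 genes, and called means a Benjamini-Hochberg adjusted p below 0.05 together with a log2 fold change of 0.5 or more in either direction. By that rule 19.9% of all genes tested were called, 11.8% higher and 8.12% lower. The median log2 fold change was 0.95 over the 9 members and -0.002 over all genes. Among all called genes 59.2% were higher on the count scale. On log2(TPM + 1), with the all-gene median at -0.14, 33.5% were. The 6 members were called higher on both scales. Values below are CPM (counts scaled to the normalized library size), listed for the 2 libraries of each group.

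FOS, the founding member and partner of the JUN proteins, had 0.553 and 0.420 CPM in control and 9.17 and 8.18 CPM with MYCL. Its control counts were only 18 and 10, so it passed the count filter through the MYCL libraries alone. The groups lay far apart, at a log2 fold change of 4.12 (SE 0.29, adjusted p = 3.87e-05), or 17.4-fold. ATF3, a stress-induced bZIP factor that forms dimers with JUN proteins, had 15.4 and 17.6 CPM against 124 and 111. Its log2 fold change was 2.84 (SE 0.10, adjusted p = 1.82e-06), or 7.16-fold, the second largest of the 10.

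The JUN family rose as a whole, by unequal amounts. JUN had 17.4 and 18.9 CPM in control and 76.6 and 64.7 with MYCL (log2 fold change 1.97, SE 0.11, adjusted p = 1.10e-05). JUND had 39.1 and 46.0 CPM against 159 and 164 (1.93, SE 0.09, adjusted p = 4.69e-06). Both were close to 4-fold higher, at 3.91-fold and 3.81-fold. JUNB, which can oppose JUN at some targets, had 24.9 and 24.0 CPM against 38.8 and 44.8 (0.77, SE 0.10, adjusted p = 5.38e-04). JUNB shares 14.2% of its exon bases with HOOK2 on the opposite strand, which had 576 to 1003 counts, and whether reads were counted by strand is not given in the sources used here. FOSL2 had 42.05 and 45.8 CPM against 86.4 and 82.6 (0.95, SE 0.08, adjusted p = 8.49e-05). For all 6 genes both MYCL libraries were above both control libraries.

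The other 4 members gave no call. IER2, a nuclear immediate early protein that is not a bZIP factor, had 31.4 and 35.4 CPM in control and 30.7 and 34.2 with MYCL (log2 fold change -0.04, SE 0.10, adjusted p = 0.793). Its groups overlapped, and its SE was as small as that of ATF3. EGR1, the zinc finger factor with CArG boxes in the window shown above, had 1.01 and 0.924 CPM against 1.30 and 0.515 (-0.09, SE 0.52, adjusted p = 0.912). With 9 to 33 counts per library EGR1 carried a wide error, and the same was true of FOSB at 13 to 27 counts (-0.17, SE 0.46, adjusted p = 0.806). FOSL1 had 3 to 8 counts. A change of the size seen in JUNB was therefore not detectable for these 3 genes at this depth.

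**Figure D3:**
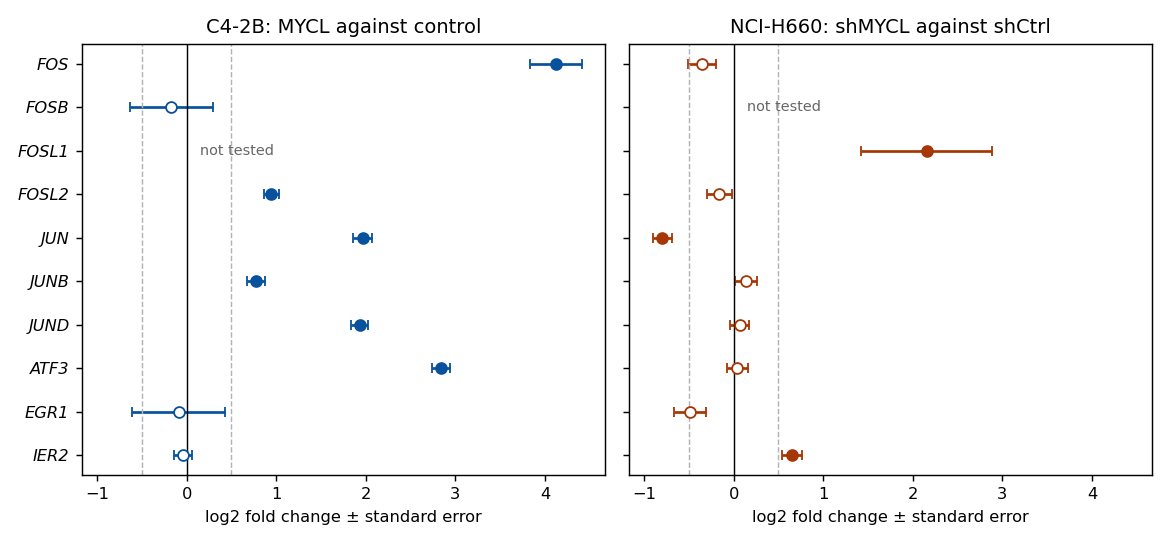
Log2 fold change of each member with MYCL in C4-2B (left) and with shMYCL in NCI-H660 (right), with standard errors. Filled points are called, open points are not, dashed lines mark an absolute change of 0.5. On the left 6 genes lie between 0.77 and 4.12; on the right JUN lies at -0.80 and IER2 at 0.65.

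MYCL knockdown in NCI-H660 was accompanied by lower JUN and higher IER2, while ATF3, JUND and JUNB, which had risen in C4-2B, were not called. FOSL1 was called higher on very few counts. The test covered 16980 genes, of which 16.2% were called, 7.18% higher and 8.99% lower. Of 9 members tested 2 were called higher and 1 lower, and their median log2 fold change was 0.04, against -0.003 for all genes. 

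JUN had 307 and 334 CPM in shCtrl and 179 and 190.1 CPM in shMYCL. Both knockdown libraries were below both control libraries, and the log2 fold change was -0.80 (SE 0.10, adjusted p = 6.88e-05), or 1.74-fold lower. IER2 had 47.6 and 51.6 CPM in shCtrl and 75.6 and 79.8 in shMYCL. The groups did not overlap, at 0.65 (SE 0.11, adjusted p = 5.50e-04), or 1.57-fold higher. IER2 shares exon bases with 2 antisense lncRNAs (21.5% and 30.7%), both of which had at most 4.91 counts in any library. Neither call passed in limma on log2(TPM + 1) without a filter on low values (adjusted p = 0.0810 for JUN and 0.0862 for IER2). That fit called only 1 gene in all.

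FOSL1, which encodes FRA1, had 7 and 1 counts in shCtrl and 19 and 13 in shMYCL (log2 fold change 2.15, SE 0.73, adjusted p = 0.0422). It passed the count filter only through the shMYCL libraries. The call was lost with DESeq2 (adjusted p = 0.146), on the TPM scale (0.103), after thinning to equal depth (0.0588), and without either shMYCL library (0.302 and 0.0885) or shCtrl replicate 2 (0.302). With shCtrl replicate 1 left out the log2 fold change was 4.09, and with shCtrl replicate 2 left out 1.31. Over the 17 alternatives its adjusted p ran from 0.0167 to 0.302.

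EGR1 had 12.9 and 10.7 CPM in shCtrl and 7.90 and 8.94 in shMYCL. The groups did not overlap, but the log2 fold change of -0.49 (SE 0.18) had an adjusted p = 0.0605 and was below the required size. Without shCtrl replicate 2 it was -0.62 (adjusted p = 0.0110) and called. FOS had 14.9 and 18.2 CPM against 12.8 and 13.2 (-0.36, SE 0.16, adjusted p = 0.106). JUNB (0.14, SE 0.12), JUND (0.07, SE 0.11), ATF3 (0.04, SE 0.12) and FOSL2 (-0.16, SE 0.14) overlapped between the groups, with adjusted p from 0.427 to 0.843. FOSB had 4 and 4 counts in shCtrl and 0 and 6 in shMYCL and was not tested.

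Whether the members responded alike in the lines was tested in a fit of all 4 groups. The quantity was the log2 fold change of MYCL against control in C4-2B minus that of shCtrl against shMYCL in NCI-H660, so that both terms run from low to high MYCL. It was above 0 and called for 7 of the 10 members, against 17.9% of 19605 genes called, 9.59% above 0 and 8.33% below. FOS differed most, at 3.76 (SE 0.30, adjusted p = 1.02e-05). It passed the filter of this fit through the C4-2B MYCL and NCI-H660 groups, not through C4-2B control, where it had 18 and 10 counts. ATF3 differed by 2.88 (SE 0.16, adjusted p = 4.43e-07) and JUND by 2.00 (SE 0.14, adjusted p = 2.71e-06). In these 2 genes the effect in NCI-H660 was within 1 SE of 0.

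JUN was higher with high MYCL in both lines, by 1.96 (SE 0.11) in C4-2B and 0.79 (SE 0.10) in NCI-H660, and the difference of 1.17 (SE 0.14, adjusted p = 1.57e-04) passed. It was the only member called in that direction in both lines. JUNB differed by 0.91 (SE 0.16, adjusted p = 0.00186) and FOSL2 by 0.78 (SE 0.18, adjusted p = 0.00815). IER2 differed by 0.61 (SE 0.15, adjusted p = 0.0110) with no call in C4-2B and a lower level at high MYCL in NCI-H660. FOSL2 and IER2 were not called on the log2(TPM + 1) scale, with adjusted p = 0.254 and 0.0534, and IER2 was lost without C4-2B control replicate 1 (0.0724) or shMYCL replicate 2 (0.0535). The increase of MYCL was 306-fold in C4-2B and its decrease 8.35-fold in NCI-H660. Cell line, vector and the size of the MYCL change differ together between these terms and cannot be told apart. Of all genes called in this test 53.5% were above 0 on the count scale and 35.7% on log2(TPM + 1).

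**Figure D4:**
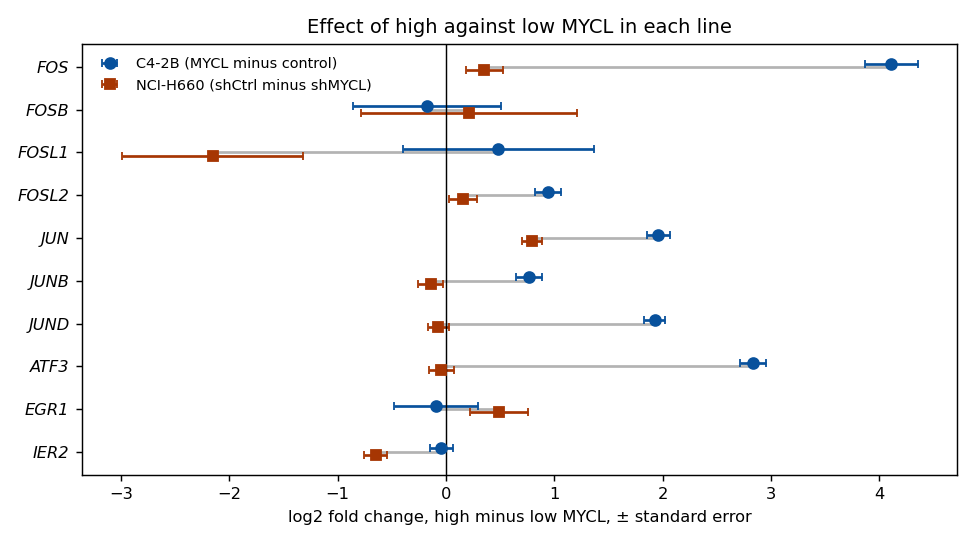
Effect of high against low MYCL on each member in the fit of all 4 groups, as log2 fold change with standard error: circles, C4-2B MYCL minus control; squares, NCI-H660 shCtrl minus shMYCL. The gap between the points is widest for FOS (3.76) and ATF3 (2.88), and for JUN both points lie above 0.

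Between the control groups of the lines 6 of the factors were higher in NCI-H660, 1 was lower and 3 were not called. NCI-H660 shCtrl libraries had more FOS (log2 difference 4.89, SE 0.24), JUN (3.99, SE 0.11), EGR1 (3.43, SE 0.31), ATF3 (1.51, SE 0.12), JUNB (1.12, SE 0.12) and JUND (1.11, SE 0.10) than C4-2B control libraries. FOS, at 18 and 10 counts in C4-2B control, passed the filter of the joint fit only through the groups where it is higher. This comparison called 69.8% of all genes, 36.5% higher and 33.3% lower, so 7 calls among 10 members is near the background. FOSB was lower in NCI-H660 at 4 counts in each library (-1.98, SE 0.79, adjusted p = 0.0352), and passed the filter of the joint fit only through the C4-2B libraries, where it is higher. That call was lost with DESeq2 (0.0877) and in 8 of 16 alternatives in all. FOSL2 (-0.22, SE 0.13) and IER2 (0.41, SE 0.10) were not called on counts. The all-gene median stood at 0.52 on log2(TPM + 1), and there FOSL2 turned to 0.57 and IER2 to 1.09, both called. Of called genes 52.2% were higher on the count scale and 71.1% on log2(TPM + 1). FOS in C4-2B MYCL libraries, at 4.83 and 5.64 TPM, stayed below every NCI-H660 library, whose lowest was 11.2 TPM.

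Other immediate early genes were also higher in C4-2B with MYCL. Of 30 listed genes 23 were tested, and 16 were called higher with MYCL, against 11.8% of all genes called higher. The median log2 fold change was 0.85, against an all-gene median of -0.002. The list was chosen with earlier results of these data known, so these counts are a description. Among those with a log2 CPM of at least 1 the largest was GADD45B, a stress-induced regulator of p38 and JNK signalling (2.72, SE 0.10, adjusted p = 2.33e-06). Next came DUSP5, a nuclear ERK phosphatase (2.03, SE 0.26), and DUSP1, a phosphatase of p38 and JNK (1.89, SE 0.14). The smallest were KLF10 (0.76, SE 0.12), KLF4 (0.66, SE 0.12) and ZFP36L1, an mRNA decay factor (0.60, SE 0.09). SRF, the factor that binds the CArG box, was not called at 0.22. IER3 was also called but passed the count filter only through the MYCL libraries. EGR2, EGR3 and EGR4, the relatives of EGR1, had too few counts to be tested.

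In NCI-H660 the same list gave 5 calls among 26 tested genes, 3 higher and 2 lower, with a median of 0.07. This is close to the 16.2% of all genes called there, 7.18% higher and 8.99% lower. NFKBIZ, a nuclear regulator of NF-κB (0.66, SE 0.12, adjusted p = 9.05e-04), and KLF10 (0.51, SE 0.10, adjusted p = 0.00191) were higher with shMYCL. CCN2, a matricellular protein (-1.58, SE 0.39, adjusted p = 0.00834), and ZFP36L1 (-0.88, SE 0.11, adjusted p = 5.33e-05) were lower. ZFP36L1 was thus higher with MYCL in one line and lower with shMYCL in the other, and KLF10 was higher with both. ARC, called on 6 to 24 counts, passed the filter only through the shMYCL libraries.

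Kinases and transcription regulators that act upstream of these genes, ternary complex factors among them, gave 0 calls upwards in C4-2B with either edgeR or DESeq2. Of 20 tested 4 were called lower and 16 were not called, with a median of -0.08. Of all genes 19.9% were called, 11.8% higher and 8.12% lower. At an unadjusted p under 0.05 edgeR had 4 with a positive and 7 with a negative change. Of all 16866 genes at least 5895 had an unadjusted p that low, the number with an adjusted p below 0.05. Those called lower were RPS6KA3, an ERK-activated kinase also named RSK2 (-1.08, SE 0.07), MAP3K5, also named ASK1 (-0.85, SE 0.14), the ternary complex factor ELK4 (-0.73, SE 0.09) and the JNK kinase MAP2K4 (-0.53, SE 0.08). In NCI-H660 edgeR and DESeq2 each called 0 of 21, where edgeR called 16.2% of all genes. There 7 had an unadjusted p under 0.05 in edgeR, 3 higher and 4 lower. Of all 16980 genes at least 4204 had an unadjusted p that low, the number with an adjusted p below 0.05.

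Among bZIP partners outside the 10, MAFF (2.21, SE 0.24, adjusted p = 2.73e-04) and JDP2, a repressor that binds JUN (0.88, SE 0.09, adjusted p = 1.92e-04), were higher in C4-2B with MYCL. Of the 12 listed, 9 were tested, 2 were called higher, 1 lower and 6 were not called, beside 11.8% and 8.12% of all genes. In NCI-H660 MAFG was higher with shMYCL (0.51, SE 0.10) and MAF was lower (-0.89, SE 0.10). Of 10 tested there, 1 was called higher, 2 lower and 7 were not called, beside 7.18% and 8.99% of all genes. With so few genes these counts are given as a description.

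**Figure D5:**
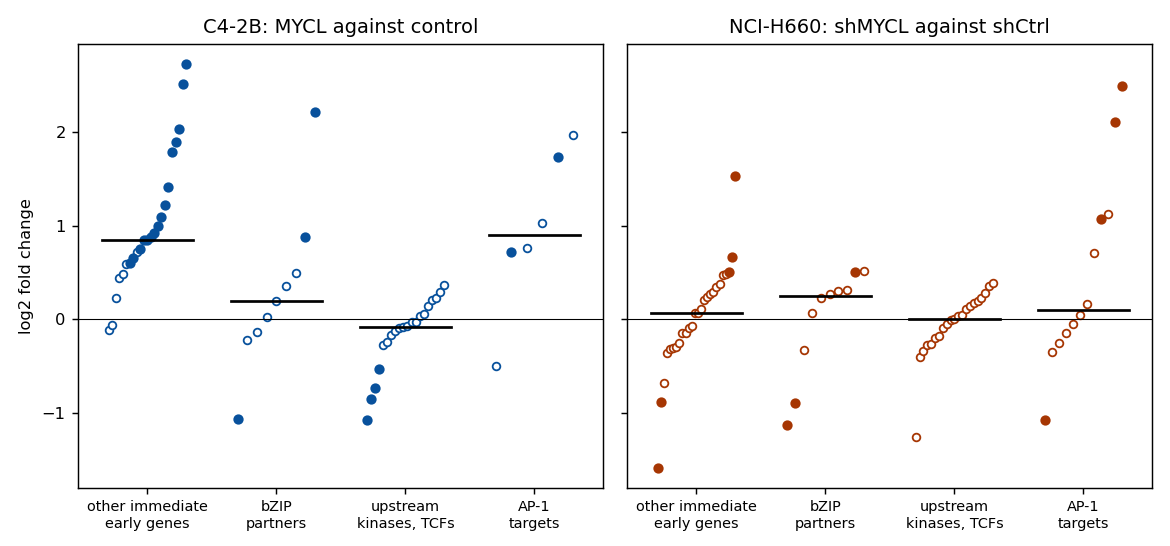
Log2 fold change of every tested gene of 4 lists, with MYCL in C4-2B (left) and with shMYCL in NCI-H660 (right), ordered by value within each list; filled points are called and the bar is the list's median. The other immediate early genes have a median of 0.85 on the left and 0.07 on the right.

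Classical AP-1 targets, among them matrix metalloproteinases and cytokines, were mostly silent in C4-2B. Of 22 listed 16 had too few counts to be tested there. Of the 6 tested 2 were called higher with MYCL and 0 lower, beside 11.8% and 8.12% of all genes. The 2 were HBEGF, a growth factor of the EGF family (0.72, SE 0.20, adjusted p = 0.0196), and TGFB1. TGFB1 passed the filter only through the MYCL libraries. At an unadjusted p under 0.05 edgeR had 5 higher and 1 lower. MMP10, among the 5, also passed the filter only through the MYCL libraries. The 1 lower was CCND1, cyclin D1 (-0.49, SE 0.07, adjusted p = 0.00111), which fell short of the required size. Of all 16866 genes at least 5895 had an unadjusted p under 0.05, the number with an adjusted p below 0.05. In NCI-H660 12 were tested, of which 3 were called higher and 1 lower, beside 7.18% and 8.99% of all genes. The metalloproteinases MMP10 (2.49, SE 0.29, adjusted p = 2.91e-05) and MMP13 (2.11, SE 0.18, adjusted p = 1.20e-06) were higher with shMYCL. CCND1 was lower with shMYCL (-1.07, SE 0.17, adjusted p = 2.93e-04). MMP13 went from 155 and 256 counts to 655 and 883, and MMP10 from 19 and 29 to 109 and 126. The remaining 8 were not called.

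Markers of lineage moved in the same libraries. With MYCL in C4-2B 2 of 7 luminal markers fell, among them KLK3 (-0.52, SE 0.07), and COL1A1, the stromal collagen, rose (0.74, SE 0.13) at 280 to 342 counts. With shMYCL in NCI-H660 2 of 6 neuroendocrine markers fell, among them INSM1 (-0.65, SE 0.11). Their part in the changes of the AP-1 factors was not tested.

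The gene whose pattern was most like each member was sought by Pearson's r over the 8 libraries, on log2 CPM centred within each line, among about 9047 genes. JUND and ATF3 were each other's nearest gene (r = 0.996). JUN was nearest to STARD4 (r = 0.997), JUNB to EEF1G (0.997), FOS to RIOK3 (0.992), FOSL2 to P4HA2 (0.989), IER2 to BCAR1 (0.988) and EGR1 to ZMYM6 (0.980). The 8 points are 4 pairs of replicates, and the values are descriptions.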

How the data were processed

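Poly(A) RNA of 2 libraries in each of 4 groups was sequenced in pairs of reads. The authors deposited a table of estimated counts per gene and a table of TPM values. Of the non-zero counts 22.4% were not whole (tolerance 0.01). The paper describes TPM as counts divided by gene length from Ensembl annotation, then scaled. The deposited TPM values do not follow from a single fixed length per gene. From shCtrl replicate 1 to replicate 2 FOSL2 went from 607 to 893 counts and from 10.5 to 15.5 TPM. JUN went from 5206 to 6170 counts but only from 170.4 to 174.0 TPM. TPM levels and family shares thus rest on lengths that may differ between libraries. The submitters' processing notes name build hg38. The aligner, the counter and the use of strand are not given in the sources used here. The counts covered 78691 genes and the TPM values 65535.

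Counts were rounded, filtered with filterByExpr, normalized by TMM and tested with edgeR 4.0.16 (R 4.3.3) in each line, and in 1 fit of all 4 groups for the difference between lines and the comparison of the lines' controls. P-values were adjusted by Benjamini-Hochberg over all genes tested. The SE of a log2 fold change was its size divided by the square root of the F statistic. Alternatives used DESeq2 1.42.0, limma 3.58.1 on log2(TPM + 1) or log2(TPM + 0.1), other filters and thresholds, thinned libraries, a replicate block and each library left out. The procedure was tested on simulated data. Biological coefficients of variation were 0.083, 0.097 and 0.093 in the C4-2B, NCI-H660 and joint fits. For a single gene, exact permutation of 2 against 2 libraries allows no p below 0.333 and was not used. The labels name biological replicates for C4-2B control alone, so p-values elsewhere measure the spread between libraries, which may be technical.

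Named genes were the 10 members, MYCL, the markers, the 3 largest and 3 smallest changes among called genes of each list with a log2 CPM of at least 1, and the gene most like each member. Further genes were named for few counts or for a role in the pathway after their values were seen: IER3, ARC, TGFB1, SRF and the EGR relatives. The members and lists were chosen with earlier results of these data known. Gene positions follow GENCODE 44, which held 61458 of the identifiers, and promoter sequences RefSeq. Some genes that the rule names are not reported here.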

Additional observations from a re-analysis of the deposited data

Results flagged for a closer look

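For 7 of the 10 members the effect of high against low MYCL differed between C4-2B and NCI-H660 by the interaction test of edgeR over all genes. The log2 differences were 3.76 for FOS, 0.78 for FOSL2, 1.17 for JUN, 0.91 for JUNB, 2.00 for JUND, 2.88 for ATF3 and 0.61 for IER2, each more positive in C4-2B. FOS, JUN, JUND and ATF3 passed under all 20 alternatives run for each of them. FOS did not pass the count filter through its C4-2B control libraries. The values for FOSL2, at 0.42, and IER2, at 0.47, were not called on log2(TPM + 1).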

How the results depend on the processing

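In C4-2B 4 to 6 members were called under the 18 alternatives, the lowest count under a required log2 fold change of 1. On log2(TPM + 1) without a filter NCI-H660 gave 0 called members and 1 called gene, although 4 members and 5469 genes had an unadjusted p under 0.05 in that limma fit. A required log2 fold change of 1 left 1 member in NCI-H660 and 4 in the difference between lines. The 1 left in NCI-H660 was FOSL1, on its few counts, while JUN (-0.80) and IER2 (0.65) fell below that size. The same requirement left 1411, 1022 and 1666 genes called in C4-2B, NCI-H660 and the difference. No minimum gave 5895 genes in C4-2B and 4204 in NCI-H660. On the TPM scale 1702 (pseudocount 1), 1600 (pseudocount 0.1) and 1692 (centred) genes were called in NCI-H660, and without a TPM filter 1940 in C4-2B and 1898 in the difference. A minimum of 10 counts in every library left 8512 genes called between the controls of the lines.

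Signs turned for small or rarely counted values. With 1 library left out, where the lone library of a group is assumed to vary like the other group, the log2 fold change of IER2 in C4-2B ran from -0.13 to 0.048, that of EGR1 in C4-2B from -0.90 to 0.42, and in NCI-H660 those of JUND from -0.0084 to 0.16, ATF3 from -0.075 to 0.17 and FOSL2 from -0.35 to 0.073. The difference between lines for FOSB ran from -5.33 to 0.57, and was 0.092 in thinned libraries. Between the controls FOSL1 ran from -2.04 to 0.76 with 1 library left out, and was 0.15 on log2(TPM + 1) with or without a filter, 0.33 with a pseudocount of 0.1 and 0.43 when thinned. FOSL2 was there 0.57 on log2(TPM + 1) with or without a filter and 0.62 with a pseudocount of 0.1. The causes were not tested.

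With the replicate number as a block, 6, 3, 7 and 7 members and 3536, 2949, 3576 and 13128 genes were called in C4-2B, NCI-H660, the difference and the controls, and FOSL1 between the controls turned to 0.95. Same-numbered libraries deviated together with a correlation of only 0.033 in C4-2B and 0.046 in NCI-H660, so the numbers were not taken as pairs. Centring of TPM and summing of rows with the same name were added after the data had been seen.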
